A study of Mus musculus with 8 samples.

Results

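Cells with a T-cell receptor (TCR) beta chain and no alpha chain made up 688 of the 2986 brain cells for which any TCR chain was deposited. A cell was counted here when its barcode carried at least 1 assembled beta contig and no alpha contig, and these cells are called beta-only below. The other cells with a beta chain, 2232 in number, had both chains. The cells came from 4 libraries of single CD45+ brain cells with 1 library per group. YTBI_Isotype and YTBI_aCD49d held cells of young B6 (C57BL/6) mice injured at 13 to 15 weeks of age, and ATBI_Isotype and ATBI_aCD49d held cells of aged B6 mice injured at 80 to 82 weeks. All 4 groups received a controlled cortical impact as traumatic brain injury (TBI), then 300 µg of either the isotype control or the anti-CD49d antibody (aCD49d) every 2 weeks, and brains were taken 2 months after TBI. Each library pooled 2 mice, so differences between mice are not visible, and no test between groups was made.

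An αβ T cell carries a receptor built from 1 alpha and 1 beta chain, each of which is joined from gene segments during development in the thymus. The beta chain is rearranged first, from V, D and J segments, and the alpha chain, from V and J segments, follows. The complementarity-determining region 3 (CDR3) lies across the joined segments and contacts the peptide held by the MHC molecule. A circulating T cell needs both chains for a surface receptor, and in single-cell sequencing a chain is seen only if at least some of its mRNA molecules are captured.

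The files held only alpha and beta chains, with 0 gamma or delta contigs, and every contig was marked productive, full length, high confidence and from a called cell. The contigs had been filtered before deposit, so these marks were no test of their quality. A cell whose alpha contig lacked such a mark would also count as beta-only here. The paper does not state whether gamma or delta chains were amplified, so their absence says nothing on cells that carry them. CD3 and other transcripts were not analysed here, so the identity of the beta-only cells as T cells rests on the beta chain itself. Only 1 barcode occurred in more than 1 library, and no beta-only cell carried it. Of the beta-only cells, 0 had more than 1 beta contig, which allows a share of up to 0.436% (3 counts of the total), against 47 of the 2232 cells with both chains. The median number of TCR UMIs (unique molecular identifiers, which count captured mRNA molecules) in cells with both chains was 10 in ATBI_Isotype and 14 to 17 in the other libraries.

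First, it was asked how often the alpha chain was missing in each library. Of the cells with a beta chain, 45 of 252 in YTBI_Isotype were beta-only, a share of 17.9% (95% exact Clopper-Pearson interval 13.3 to 23.2%). In YTBI_aCD49d the share was 125 of 562 cells, or 22.2% (18.9 to 25.9%). In ATBI_Isotype it was 332 of 1004 cells, or 33.1% (30.2 to 36.1%), and in ATBI_aCD49d 186 of 1102 cells, or 16.9% (14.7 to 19.2%). ATBI_Isotype stood highest, and its interval did not overlap those of the other 3 libraries. The opposite loss was rarer in all 4 libraries, since of the cells with an alpha chain between 2.24% (ATBI_aCD49d) and 4.61% (YTBI_Isotype) had no beta chain.

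Subtracting ATBI_aCD49d from ATBI_Isotype gave a difference of 16.2 percentage points (95% Newcombe interval 12.5 to 19.9 points). Between the young libraries, YTBI_Isotype lay 4.38 points below YTBI_aCD49d, and the interval of the isotype minus aCD49d difference, −10.2 to 1.90 points, included 0. Aged minus young gave 15.2 points (9.17 to 20.6) under isotype and −5.36 points (−9.62 to −1.26) under aCD49d. With 1 library per group these intervals cover counting error only and not the spread between mice or preparations.

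Captured molecules differed between the libraries as well. The leading beta contig, defined as the contig with the most UMIs, had a median of 11 UMIs in the cells with both chains of YTBI_Isotype and ATBI_aCD49d, 9 in YTBI_aCD49d and 7 in ATBI_Isotype. The leading alpha contig rested on a single UMI in 23.1% of the cells with both chains in ATBI_Isotype, against 10.1% in YTBI_Isotype, 11.7% in YTBI_aCD49d and 9.28% in ATBI_aCD49d. ATBI_Isotype was thus the library with the fewest beta UMIs per cell, the largest share of alpha chains seen as a single molecule and the largest beta-only share. Within cells with both chains, alpha UMIs made up a similar share of all TCR UMIs in the 4 libraries, from 29.0% in YTBI_aCD49d to 30.2% in YTBI_Isotype. Over all cells with a beta chain the alpha share of UMIs was 21.9% in ATBI_Isotype and 24.8 to 27.2% in the other 3.

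To set the libraries side by side at equal depth, the chance that 5 TCR UMIs drawn from a cell hold no alpha UMI was computed exactly for each cell with at least 5 TCR UMIs. The mean chance came to 33.4% for YTBI_Isotype over 238 cells, 32.9% in YTBI_aCD49d over 512 cells, 39.7% in ATBI_Isotype over 863 cells and 32.1% in ATBI_aCD49d over 1060 cells. This left out 14, 50, 141 and 42 shallower cells in the same order, and before thinning the cells that were used had shares of 14.7%, 17.8%, 27.2% and 14.8%. Because alpha UMIs count towards the 5, most of the cells left out were themselves beta-only, namely 10, 34, 97 and 29 of them. The aged difference under this filter was 7.54 points (3.16 to 11.9), against 12.4 points for the same cells before thinning. Intervals for thinned shares treat the summed chances as counts and are approximate.

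A filter that does not count alpha UMIs, of at least 5 UMIs in the leading beta contig, gave larger differences. It left out 28, 122, 285 and 129 cells in YTBI_Isotype, YTBI_aCD49d, ATBI_Isotype and ATBI_aCD49d. Of these, 10, 34, 97 and 29 were beta-only, as under the first filter, so every further cell it left out had an alpha chain. The part of this selection in the larger differences was not tested. Among cells whose leading beta contig had at least 5 UMIs, the mean chance of no alpha UMI in 5 was 47.6% in ATBI_Isotype (719 cells) and 35.0% in ATBI_aCD49d (973 cells), and 35.5% in YTBI_Isotype (224 cells) and 38.3% in YTBI_aCD49d (440 cells). The aged difference was then 12.6 points (7.79 to 17.4), and the young difference was −2.82 points (−10.7 to 5.24). Averaging over beta UMI classes in place of thinning left 14.9 points between the aged libraries and −2.20 points between the young. Before thinning, the aged difference for the cells kept by this beta filter was 16.5 points. The aged difference thus stayed above 0 in each of these, while its size depended on which cells were kept and on the thinning. The young difference was 0.48 points (−6.85 to 8.04) under the filter that counts alpha UMIs.

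**Figure D1:**
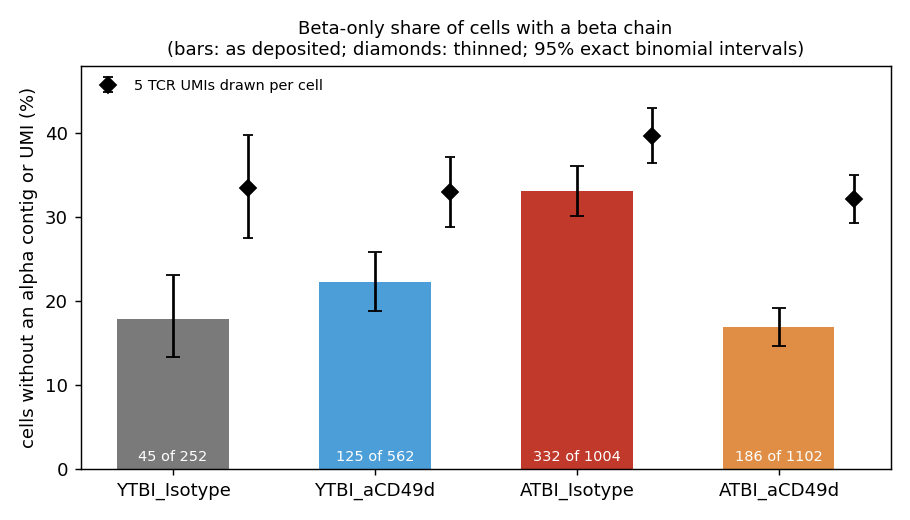
Share of cells with a beta chain that had no alpha contig in each library (bars, %, counts printed in the bars) and the share expected without an alpha UMI when 5 TCR UMIs are drawn from each cell with at least 5 (black diamonds, %), each with a 95% interval. The interval is exact binomial for the bars. For the diamonds the same formula treats the summed chances as a count, so it is approximate. ATBI_Isotype is highest on both measures, at 33.1% and 39.7%.

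The beta-only share was then followed across cells with more or fewer beta UMIs. In YTBI_Isotype it was 45.5% of 22 cells with 3 to 4 beta UMIs, 21.9% of 64 cells with 5 to 8, 16.2% of 105 cells with 9 to 16 and 7.27% of 55 cells with 17 or more. In YTBI_aCD49d the share was 28.0% of 100 cells with 3 to 4 beta UMIs and 13.9% of 79 cells with 17 or more. In ATBI_aCD49d the corresponding values were 22.9% of 96 cells and 13.2% of 242 cells. From 3 UMIs upward, these 3 libraries had lower shares in the deepest class than in the shallowest. Below 3 UMIs there were few cells, with 0 of 6 beta-only in YTBI_Isotype (a share of up to 50%), 6 of 22 in YTBI_aCD49d, 7 of 33 in ATBI_aCD49d and 17 of 75 in ATBI_Isotype.

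In ATBI_Isotype the share was 38.1% of 210 cells with 3 to 4 beta UMIs, 36.0% of 369 cells with 5 to 8, 27.6% of 275 cells with 9 to 16 and 34.7% of 75 cells with 17 or more (24.0 to 46.5%). In the deepest class, the ATBI_Isotype interval lay above those of YTBI_Isotype (2.02 to 17.6%), YTBI_aCD49d (7.16 to 23.5%) and ATBI_aCD49d (9.22 to 18.2%). Without clones of 10 or more cells, the value in this class was 33.8% of 65 cells in ATBI_Isotype and 14.6% of 185 cells in ATBI_aCD49d. When each library's shares were averaged over the beta UMI classes of all libraries combined, they came to 32.5% in ATBI_Isotype, 17.6% in ATBI_aCD49d, 22.2% in YTBI_aCD49d and 20.04% in YTBI_Isotype. At the lowest end, 1 of 688 beta-only cells had a leading beta contig of a single UMI, against 33 of 2232 cells with both chains.

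**Figure D2:**
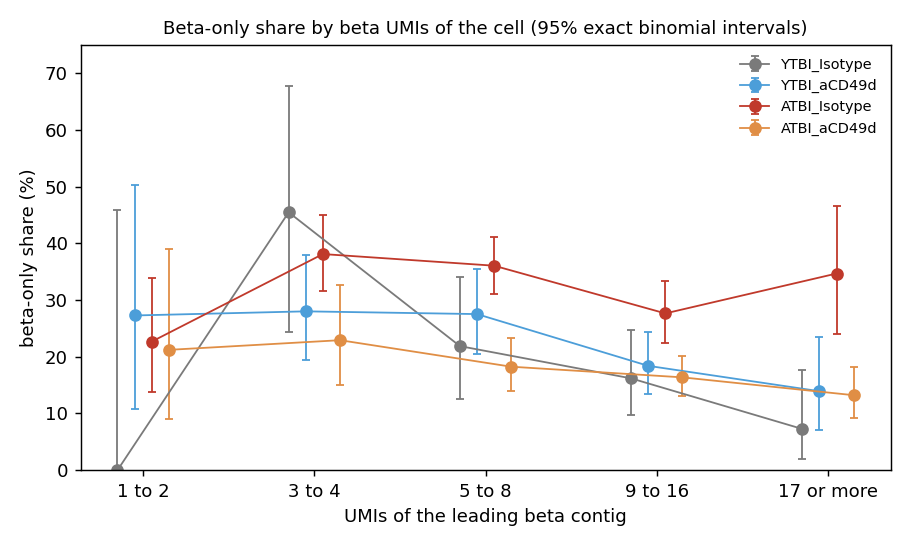
Beta-only share (%) of cells grouped by the UMIs of their leading beta contig, for the 4 libraries, with 95% exact binomial intervals. The share falls from 45.5% to 7.27% between 3 to 4 and 17 or more UMIs in YTBI_Isotype, while ATBI_Isotype stays between 27.6% and 38.1% over the same classes.

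Next, the beta contigs of beta-only cells were compared with those of cells with both chains in the same library. In YTBI_Isotype, the leading beta contig had a median of 8 UMIs in beta-only cells and 11 in cells with both chains. The medians were 7 and 9 in YTBI_aCD49d, 6 and 7 in ATBI_Isotype, and 9 and 11 in ATBI_aCD49d. Beta-only cells had fewer beta UMIs in 4 of 4 libraries, although the ranges between the quartiles overlapped in each. The mean difference of log2 UMIs (beta-only minus both chains) was −0.42 in YTBI_Isotype and −0.25 in YTBI_aCD49d, and −0.02 in ATBI_Isotype and −0.19 in ATBI_aCD49d. Over the libraries this averaged −0.22 ± 0.16 (SD, n = 4), a geometric mean of 0.859 times the UMIs, with p = 0.13 in a two-sided exact sign-flip permutation test and 0.208 after Benjamini-Hochberg adjustment over the 5 measures compared. With 4 libraries, 0.13 is the smallest p that this test can give.

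Reads of the leading beta contig did not follow its UMIs. The leading beta contig of beta-only cells had a median of 44071 reads in YTBI_Isotype, against 41224 in cells with both chains. The medians were 40433 and 40045 in YTBI_aCD49d, 29223 and 30590 in ATBI_Isotype, and 41360 and 38328 in ATBI_aCD49d. The mean difference in log2 reads was 0.10 ± 0.12 (SD, n = 4), and beta-only cells were higher in 3 of 4 libraries (exact permutation p = 0.25, adjusted 0.25). Without YTBI_Isotype the mean was 0.047. Reads per beta UMI had medians of 5352 in beta-only cells and 3165 in cells with both chains of YTBI_Isotype, 4906 and 4157 in YTBI_aCD49d, 4556 and 4319 in ATBI_Isotype, and 4333 and 3320 in ATBI_aCD49d.

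The log2 difference in reads per UMI was positive in 4 of 4 libraries, at 0.67, 0.20, 0.11 and 0.29 in the order just given, with a mean of 0.32 ± 0.25 (SD, n = 4), or 1.25-fold (exact permutation p = 0.13, adjusted 0.208). Without YTBI_Isotype the mean was 0.20. Reads over all TCR contigs of a cell had lower medians in beta-only cells, which have no alpha reads. They were 44071 against 56809 in YTBI_Isotype and 40433 against 55319 in YTBI_aCD49d. In the aged libraries they were 29223 against 42508 (ATBI_Isotype) and 41360 against 54392 (ATBI_aCD49d). The part of this in the reads per beta UMI was not tested.

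**Figure D3:**
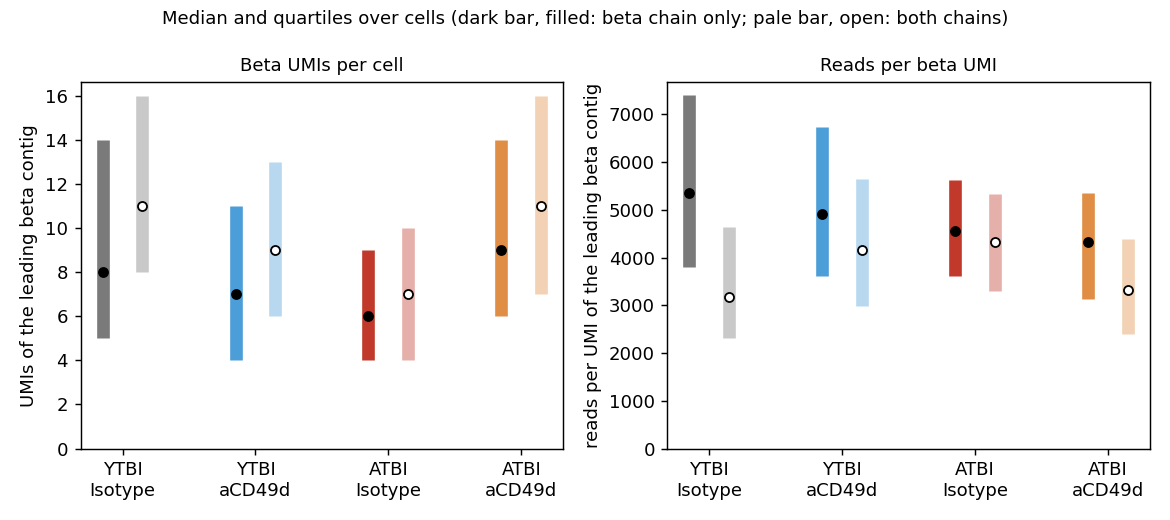
Median (points) and quartiles (vertical bars) of the UMIs of the leading beta contig and of its reads per UMI, over beta-only cells (dark bars, filled points) and cells with both chains (pale bars, open points) of each library. Beta-only cells have the lower median of UMIs and the higher median of reads per UMI in all 4 libraries.

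The mean length of the beta CDR3 was nearly the same in both kinds of cell. Its mean was 14.1 codons in beta-only cells and 14.2 in cells with both chains of YTBI_Isotype, 14.1 and 14.1 in YTBI_aCD49d, 13.7 and 13.7 in ATBI_Isotype, and 14.6 and 14.4 in ATBI_aCD49d. The difference averaged 0.05 ± 0.06 codons (SD, n = 4; exact permutation p = 0.25, adjusted 0.25), 0.025 codons without ATBI_aCD49d and 0.071 without YTBI_Isotype. Its sign turned without the largest clonotypes (−0.035), without clones of 10 or more cells (−0.022) and with clones weighted equally (−0.0098). For the constant region, the differences went in both directions. TRBC1 (GRCm38 chr6:41538218-41539881, plus strand) had a beta-only share of 20.3% against 16.9% for the rest of YTBI_Isotype, 17.8% against 24.2% in YTBI_aCD49d, 33.8% against 32.0% in ATBI_Isotype and 17.7% against 16.5% in ATBI_aCD49d. The mean difference for TRBC1 was −0.01 ± 4.4 points, and that for TRBC2 was 0.33 ± 4.4 points (SD, n = 4 libraries each).

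Clonal cells, meaning cells that shared their deposited clonotype with another cell of the library, were slightly more common among beta-only cells. They made up 22.2% of 45 beta-only cells against 19.3% of 207 cells with both chains in YTBI_Isotype, and 29.6% of 125 against 25.4% of 437 in YTBI_aCD49d. In ATBI_Isotype they were 66.9% of 332 against 62.4% of 672, and in ATBI_aCD49d 62.4% of 186 against 59.0% of 916. The clonal share was higher in beta-only cells in 4 of 4 libraries, by 3.76 ± 0.74 points (SD, n = 4; exact permutation p = 0.13, adjusted 0.208). Within each library the intervals of both kinds of cell overlapped, and without the largest clonotype of each library the mean difference was 1.41 points.

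A beta-only cell can be placed in a clone through its beta chain alone. Here a clone was also defined as the cells of a library that shared the V gene and the CDR3 nucleotides of the leading beta contig. By this definition 361 of the 688 beta-only cells (52.5%) had the beta chain of at least 1 cell with both chains in the same library. The numbers were 6 of 45 (13.3%) in YTBI_Isotype, 34 of 125 (27.2%) in YTBI_aCD49d, 208 of 332 (62.7%) in ATBI_Isotype and 113 of 186 (60.8%) in ATBI_aCD49d. For most beta-only cells of the aged libraries, the alpha chain of their clone was thus present elsewhere in the library. Clones of 2 or more cells in which every cell lacked the alpha chain were few, with 8 in ATBI_Isotype (16 cells), 1 in ATBI_aCD49d (3 cells), 2 in YTBI_Isotype (4 cells) and 1 in YTBI_aCD49d (3 cells).

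The alpha chain was also missing outside expanded clones. Among beta chains seen in a single cell, 17.3% of 202 cells were beta-only in YTBI_Isotype, 21.3% of 413 in YTBI_aCD49d, 30.1% of 359 in ATBI_Isotype and 15.7% of 445 in ATBI_aCD49d. In clones of 2 to 9 cells the beta-only cells were 10 of 50, 24 of 109, 58 of 216 (26.9%) and 32 of 224 (14.3%) in the same order. In clones of 10 or more cells they were 32.5% of 40 (18.6 to 49.1%) in YTBI_aCD49d, 38.7% of 429 (34.1 to 43.5%) in ATBI_Isotype and 19.4% of 433 (15.8 to 23.4%) in ATBI_aCD49d, and YTBI_Isotype had no such clone. In these 3 libraries the largest clones had the highest share, but their interval lay above that of the clones of 2 to 9 cells only in ATBI_Isotype (21.1 to 33.3% for the latter). Their cells also had fewer beta UMIs, with medians of 6 in ATBI_Isotype and 9 in ATBI_aCD49d, against 8 and 11 among beta chains seen in a single cell. The part of these UMI differences in the shares was not tested.

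Clones differed among themselves. Of the 12 deposited clonotypes with at least 20 cells carrying a beta chain, the beta-only share ranged from 0 to 100% with a median of 34.1%. The extremes were both in ATBI_aCD49d, where clonotype 6 had 20 beta-only cells of 20 and clonotype 3 had 0 of 69, which allows a share of up to 4.35% as 3 counts of the total and up to 5.21% by the exact interval. Their beta CDR3, with the V gene (TRBV3) and J gene (TRBJ2-7) in common, is given with the bases that match neither the germline V nor the germline J segment in capitals.

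ATBI_aCD49d clonotype 6: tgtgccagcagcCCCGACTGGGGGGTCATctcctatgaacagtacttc
ATBI_aCD49d clonotype 3: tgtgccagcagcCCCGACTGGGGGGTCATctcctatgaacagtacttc

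The sequences are identical, as are the framework and CDR nucleotides listed for the whole beta variable region. Clonotype 11 of the same library, with 0 beta-only cells of 12 (a share of up to 25%), had this beta chain too, and it had the same alpha chain as clonotype 3. Joined by their beta chain, these 3 deposited clonotypes formed a clone of 101 cells with 20 beta-only cells, a share of 19.8% (12.5 to 28.9%) that was close to the 16.6% of all other cells in the library. The shares of 0% and 100% thus arose from how the cells had been divided into clonotypes. Of the 1639 clones defined by the beta chain, 10 were spread over more than 1 deposited clonotype. In ATBI_aCD49d, 22 of the 113 beta-only cells with a matching cell were kept apart from the clonotype of that cell, and in the other 3 libraries 0 were.

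With clones defined by the beta chain, 11 had at least 20 cells, and their beta-only share ranged from 4.35% to 58.8% with a median of 32.3%. The highest was clonotype 4 of ATBI_Isotype, in which 30 of 51 cells were beta-only, or 58.8% (44.2 to 72.4%), against 31.7% of all other cells of the library, a difference of 27.1 points (12.2 to 41.0). Clonotype 5 of ATBI_Isotype followed with 20 of 44 cells, or 45.5% (30.4 to 61.2%), 12.95 points above the rest, with an interval that included 0 (−2.42 to 28.9). This order is by share. By the difference from the rest of the library, clonotype 1 of YTBI_aCD49d (18.8 points) and clonotype 1 of ATBI_aCD49d (13.03 points) stood above it. The lowest was clonotype 5 of ATBI_aCD49d with 2 of 46 cells, or 4.35% (0.531 to 14.8%), 13.1 points below the rest of its library (interval of the clone minus rest difference −17.6 to −2.35 points). Clonotype 2 of ATBI_aCD49d (TRBV10 and TRBJ2-7 with TRAV9-4 and TRAJ34) was next lowest, with 10 of 77 cells or 12.99% (6.41 to 22.6%). The beta and alpha CDR3 of the highest pair and of the lowest clone show the chain that was seen and the chain that was missing, with capitals again for bases that match neither germline segment.

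ATBI_Isotype clonotype 4 beta (TRBV19, TRBJ2-1): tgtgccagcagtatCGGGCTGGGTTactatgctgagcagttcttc
ATBI_Isotype clonotype 4 alpha (TRAV16, TRAJ56): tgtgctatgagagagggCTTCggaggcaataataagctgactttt
ATBI_Isotype clonotype 5 beta (TRBV1, TRBJ1-5): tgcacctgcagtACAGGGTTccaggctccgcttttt
ATBI_Isotype clonotype 5 alpha (TRAV14D-1, TRAJ56): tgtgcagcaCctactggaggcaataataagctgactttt
ATBI_aCD49d clonotype 5 beta (TRBV19, TRBJ1-1): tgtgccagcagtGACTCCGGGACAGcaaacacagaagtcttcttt
ATBI_aCD49d clonotype 5 alpha (TRAV17, TRAJ33): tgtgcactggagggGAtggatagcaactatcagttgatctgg

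The highest and the lowest of these clones both used TRBV19, so the V segment of the beta chain was common to both ends of the range. The alpha chains of both ATBI_Isotype clones used TRAJ56 (GRCm38 chr14:54159263-54159325, plus strand), which forms the ends of their CDR3. The other 6 expanded clones that were paired with TRAJ56 had 3 beta-only cells of 16, and TRAJ56 was singled out after these values had been seen. A clone could be paired with TRAJ56 only through a cell with both chains, which limits the beta-only share of small clones by construction. The count of 3 of 16 was also not split by library. It is therefore not a like comparison with clonotypes 4 and 5 of ATBI_Isotype, and the part of TRAJ56 in their shares was not tested. In the cells with both chains, the leading alpha contig had a median of 2 UMIs and a mean of 2.86 in clonotype 4, and a median of 2 and a mean of 2.58 in clonotype 5. In clonotype 5 of ATBI_aCD49d the median was 4 and the mean 4.64. Over all cells with both chains, the median was 3 and the mean 3.28 in ATBI_Isotype, and 4 and 4.99 in ATBI_aCD49d. The alpha chain was a single UMI in 38.1% of the 21 cells with both chains in clonotype 4 of ATBI_Isotype, 20.8% of 24 in clonotype 5 and 4.55% of 44 in clonotype 5 of ATBI_aCD49d. The shares of all cells with both chains were 23.1% in ATBI_Isotype and 9.28% in ATBI_aCD49d. The libraries themselves thus differed in alpha UMIs, and the part of this in the contrast between clones was not tested.

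The order of the highest pair changed among deeper cells, of which there were few. Of the 51 cells of clonotype 4 of ATBI_Isotype, 29 had a leading beta contig of at least 5 UMIs, and 13 of these were beta-only (44.8%). Clonotype 5 of ATBI_Isotype had 40 such cells, of which 20 were beta-only. With 5 TCR UMIs drawn from these cells, 57.2% of those of clonotype 4 and 67.2% of those of clonotype 5 were expected to show no alpha UMI. Clonotype 5 of ATBI_aCD49d was the lowest of the 11 clones here as well, at 16.7% of 40 cells. The filter on at least 5 TCR UMIs of either chain gave 48.8% and 62.5% for the same pair, but every one of the 17 cells it removed from clonotype 4 was beta-only. Beta-only cells of clonotype 4 of ATBI_Isotype had a median of 4 beta UMIs and its cells with both chains 7, while the medians were 8.5 and 10 in clonotype 5.

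The largest clone of each library lay between these extremes. Clonotype 1 of ATBI_Isotype (TRBV19 and TRBJ1-4) had 38 beta-only cells of 106, or 35.8%, against 32.7% of the rest. Clonotype 1 of ATBI_aCD49d (V call TRBV12-2+TRBV13-2, with TRBJ2-4) had 29 of 101, or 28.7%, against 15.7% of the rest, a difference of 13.03 points (4.13 to 23.1). Clonotype 1 of YTBI_aCD49d (TRBV31 and TRBJ2-4) had 12 of 30, or 40.0%, against 21.2% of the rest, a difference of 18.8 points (1.02 to 38.5). Clonotype 1 of YTBI_Isotype (TRBV13-3 and TRBJ2-7) had only 7 cells, of which 5 had both chains. The beta CDR3 of these clones are given for identification, marked as before.

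ATBI_Isotype clonotype 1: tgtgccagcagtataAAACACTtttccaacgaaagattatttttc
ATBI_aCD49d clonotype 1: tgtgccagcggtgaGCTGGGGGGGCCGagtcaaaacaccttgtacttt
YTBI_aCD49d clonotype 1: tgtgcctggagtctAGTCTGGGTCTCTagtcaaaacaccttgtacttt
YTBI_Isotype clonotype 1: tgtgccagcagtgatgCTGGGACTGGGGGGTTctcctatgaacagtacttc

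Clonotypes 2 and 3 of ATBI_Isotype had the same alpha CDR3 nucleotides (TRAV12-1 and TRAJ22) and beta CDR3 (TRBV14 and TRBJ1-2) that differ by 1 base, at position 5 counted from the 5′ end, in capitals here.

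ATBI_Isotype clonotype 2: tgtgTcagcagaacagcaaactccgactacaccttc
ATBI_Isotype clonotype 3: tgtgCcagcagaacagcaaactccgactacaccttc

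Their beta-only shares were 32.3% of 99 cells (23.3 to 42.5%) and 39.7% of 73 cells (28.5 to 51.9%). The intervals overlapped, and the shares lay on either side of the 33.1% of the whole library. Across the clones of 10 or more cells, the rank correlation (Spearman) between the beta-only share and the mean alpha UMIs of the cells with both chains was −0.17 over 9 clones in ATBI_Isotype and −0.50 over 9 clones in ATBI_aCD49d. These are descriptions over clones of a single library each.

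**Figure D4:**
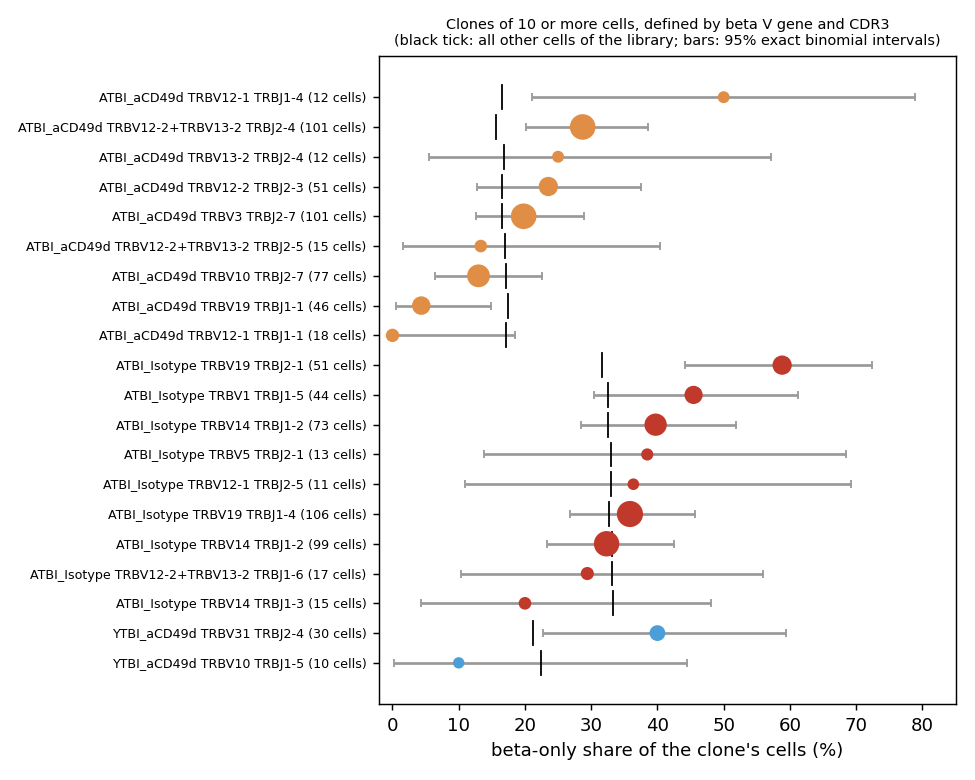
Beta-only share (%) of every clone with 10 or more cells, defined by the beta V gene and CDR3, with 95% exact binomial intervals, point area growing with the number of cells and colour giving the library. Black ticks give the share in all other cells of the library. The share ranges from 0 of 18 cells (interval up to 18.5%) to 58.8% over the 20 clones.

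Finally, the V and J segments of the beta chain were compared. For each segment carried by at least 10 cells of every library, the beta-only share of its cells was set against that of all other cells of the same library. Of 11 TRBV segments, 2 were lower than the rest in all 4 libraries (18.2% of the segments) and 1 was higher in all 4 (9.09%). Of 10 TRBJ segments, 2 were higher in all 4 (20%) and 0 were lower in all 4 (0%).

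TRBV5 (chr6:41062332-41062803, plus strand) had the lowest mean difference from the rest over the 4 libraries. It was beta-only in 2 of 17 cells in YTBI_Isotype (11.8%), 3 of 28 in YTBI_aCD49d (10.7%), 5 of 42 in ATBI_Isotype (11.9%) and 2 of 39 in ATBI_aCD49d (5.13%). The rest of these libraries had shares of 18.3%, 22.8%, 34.0% and 17.3%. TRBV5 thus lay below the rest in each library, by a mean of 13.2 points (segment minus rest −13.2 ± 6.5, SD, n = 4 libraries). In ATBI_Isotype its interval reached from 3.98 to 25.6%, below the share of the rest, while the intervals of the other 3 libraries included the share of the rest (1.46 to 36.4% in YTBI_Isotype, 2.27 to 28.2% in YTBI_aCD49d and 0.627 to 17.32% in ATBI_aCD49d). With each clone given equal weight the mean difference was −13.7 points, and it was lower in 4 of 4 libraries.

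TRBV10 (chr6:41091940-41092228, plus strand), which GENCODE lists as a pseudogene although the deposited contigs carrying it were productive, was beta-only in 0 of 11 cells in YTBI_Isotype (a share of up to 27.3%), 3 of 30 in YTBI_aCD49d, 7 of 23 in ATBI_Isotype and 11 of 97 in ATBI_aCD49d. Its mean difference was −10.1 ± 7.1 points, and with each clone given equal weight it was lower in 3 of 4 libraries. Averaged over beta UMI classes the difference was −4.76 points. Of the 97 TRBV10 cells in ATBI_aCD49d, 77 belonged to clonotype 2, as did 10 of the 11 that were beta-only. TRBV29 (chr6:41271394-41271881, plus strand) was the third lowest at −5.48 ± 10.9 points, but was higher than the rest in YTBI_aCD49d, with 10 of 32 cells. Its mean was −10.5 points without YTBI_aCD49d and −1.78 points without ATBI_Isotype.

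At the other end, TRBV1 (chr6:40891229-40891885, plus strand) was beta-only in 3 of 10 cells in YTBI_Isotype, 4 of 22 in YTBI_aCD49d, 38 of 85 in ATBI_Isotype (44.7%) and 12 of 62 in ATBI_aCD49d. Its mean difference was 5.94 ± 8.3 points and became −0.41 points after averaging over beta UMI classes and ranged from 3.68 points (without ATBI_Isotype) to 9.33 points (without YTBI_aCD49d) when 1 library was left out. TRBV1 cells had more beta UMIs than the rest in every library. Their medians were 17.5 against 11 in YTBI_Isotype, 17 against 9 in YTBI_aCD49d, 10 against 6 in ATBI_Isotype and 19 against 10 in ATBI_aCD49d. What lay behind the change on averaging was not tested. Of its 85 cells in ATBI_Isotype, 44 belonged to clonotype 5. TRBV16 (chr6:41151740-41152230, plus strand) differed by 4.34 ± 10.6 points, with 20 of 42 cells beta-only in ATBI_Isotype (47.6%) and 5 of 44 in ATBI_aCD49d (11.4%). Averaged over beta UMI classes, TRBV16 was 13.8 points higher, and higher in 4 of 4 libraries. Without that averaging, its mean with 1 library left out ranged from 0.73 points (without ATBI_Isotype) to 7.71 points (without ATBI_aCD49d). TRBV13-1 (chr6:41116007-41116468, plus strand) was the segment that was higher in all 4 libraries as deposited, though by only 3.80 ± 3.6 points. It was higher in 3 of 4 libraries with clones weighted equally, and also in 3 of 4 without the 3 largest clonotypes. Averaged over beta UMI classes, TRBV13-1 was 5.49 points higher, and higher in 4 of 4 libraries. For these segments the spread between libraries was as large as the mean difference or nearly so.

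Among J segments, TRBJ1-3 (chr6:41534323-41534376, plus strand) had the largest mean difference from the rest, with 5 of 11 cells in YTBI_Isotype, 7 of 29 in YTBI_aCD49d, 22 of 57 in ATBI_Isotype and 7 of 29 in ATBI_aCD49d. The mean was 11.04 ± 12.1 points, and it was 5.11 points without YTBI_Isotype, the library with 5 of 11 cells. In the other 3 libraries, TRBJ1-4 or TRBJ2-1 had a higher share than TRBJ1-3. TRBJ1-4 and TRBJ2-1 differed from the rest by 4.35 ± 8.7 and 4.16 ± 7.7 points, each higher in 3 of 4 libraries, and by 0.98 and 1.24 points with clones weighted equally. When 1 library was left out, the mean for TRBJ1-4 ranged from 0.74 points (without ATBI_aCD49d) to 7.71 points (without ATBI_Isotype), and that for TRBJ2-1 from 1.67 points (without YTBI_aCD49d) to 7.11 points (without YTBI_Isotype). TRBJ1-1 (chr6:41533864-41533911, plus strand) had the lowest mean difference, −7.51 ± 7.3 points, with 3 of 15 cells in YTBI_Isotype, 3 of 37 in YTBI_aCD49d (8.11%), 12 of 50 in ATBI_Isotype and 17 of 164 in ATBI_aCD49d (10.4%). It was above the rest in YTBI_Isotype and below it in the other 3 libraries. The mean was −3.38 points with clones weighted equally, and ranged from −10.8 points (without YTBI_Isotype) to −4.97 points (without YTBI_aCD49d) when 1 library was left out. Of its 164 cells in ATBI_aCD49d, 46 belonged to clonotype 5 of ATBI_aCD49d. TRBJ2-2 and TRBJ2-7 came next at −3.69 ± 6.1 and −3.20 ± 8.2 points, and neither kept its sign throughout. TRBJ2-2 was 2.07 points above the rest after averaging over beta UMI classes, and ranged from −5.92 points (without ATBI_Isotype) to −1.86 points (without YTBI_Isotype) when 1 library was left out. TRBJ2-7 was −0.53 points without the 3 largest clonotypes and 0.87 points without ATBI_Isotype.

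**Figure D5:**
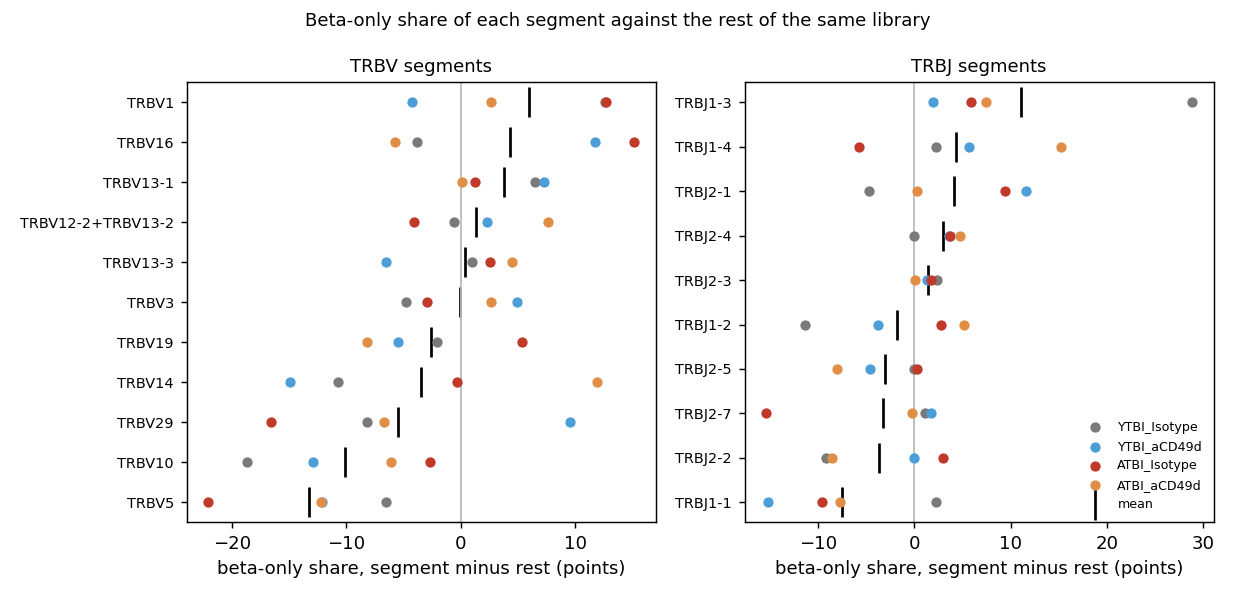
Difference in beta-only share (percentage points) between the cells carrying a TRBV or TRBJ segment and all other cells of the same library, for segments with at least 10 cells in every library. Coloured points are the 4 libraries and black bars their mean. TRBV5 lies below 0 in all 4 libraries, with a mean of −13.2 points.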

How the data were processed

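TCR libraries of single CD45+ brain cells were analysed, 1 for each of 4 groups. The authors aligned TCR reads to mm10 with Cell Ranger (7.2.0 in the submitters' processing notes, which also list mm9). The deposited contig tables give reads and UMIs as counts per assembled chain, and the deposited clonotype tables give cells as counts and as a fraction of the library. Cells were classed by their contigs, and the contig with most UMIs led. Intervals are exact Clopper-Pearson at 95%, with Newcombe intervals for differences, and cover counting error only. For thinned shares the same formulas were applied to summed chances in place of counts, so those intervals are approximate. Means over libraries were tested by exact sign-flip permutation. Clones named are those at the extremes of beta-only share among clonotypes of at least 20 cells (3 at each end) and the largest of each library. Segments named are the 3 highest and 3 lowest among those with at least 10 cells in every library. The members and lists were chosen with earlier results of these data known. Alternatives were another denominator, exclusion of possible doublets (over 1 beta or over 2 alpha contigs), at least 2 beta UMIs, exclusion of the largest clonotypes or of clonotypes with iNKT or MAIT evidence, equal clone weights, other clone definitions and minima, thinning to 3 or 10 UMIs, and each library left out. Exclusion of clones of 10 or more cells, exclusion of each library for the segments and thinning of cells with at least 5 beta UMIs were added after values were seen. Thinning was tested on simulated data. CDR3 bases were matched to GENCODE vM21 transcripts on GRCm38, the assembly of mm10. Software was scipy 1.17.1, numpy 2.4.6, matplotlib 3.10.9 and pandas 2.3.3 under Python 3.11.15.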

Additional observations from a re-analysis of the deposited data

Results flagged for a closer look

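The difference in beta-only share between isotype and aCD49d had opposite signs at the 2 ages, at 16.2 percentage points in the aged libraries and −4.38 points in the young libraries, where the interval of −10.2 to 1.90 points included 0. The young difference was 0.48 and 0.34 points with 5 or 3 UMIs drawn per cell, −2.90 points with 10, −2.82 points with 5 drawn from cells with at least 5 beta UMIs, and −2.20 points when averaged over beta UMI classes. With 1 library per group this difference between ages was not tested.

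Cells with an alpha chain and no beta chain, which entered no comparison of the beta chain, numbered 66, with 21 in ATBI_aCD49d, 20 in ATBI_Isotype, 15 in YTBI_aCD49d and 10 in YTBI_Isotype.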

How the results depend on the processing

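Of 242 values recomputed under an alternative, 215 stayed within the error of the reported value. That error was wide for the segments, and some of the 215 changed sign. Over beta UMI classes TRBV1 went from 5.94 to −0.41 points and TRBJ2-2 from −3.69 to 2.07 points. TRBJ2-7 went from −3.20 to 0.87 points without ATBI_Isotype, and the CDR3 length difference from 0.05 to −0.0098 codons with clones weighted equally. The young difference between isotype and aCD49d, −4.38 points as reported, changed sign when 5 or 3 UMIs were drawn per cell (0.48 and 0.34 points), but not at 10 UMIs (−2.90), with 5 drawn from cells with at least 5 beta UMIs (−2.82) or over beta UMI classes (−2.20). The aged difference was 7.54, 7.92 and 5.89 points at 5, 3 and 10 UMIs. The beta-only share of ATBI_Isotype was 28.9% without clones of 10 or more cells and 29.6% with clones weighted equally. Shares without alpha in YTBI_Isotype, YTBI_aCD49d, ATBI_Isotype and ATBI_aCD49d were 48.6%, 48.3%, 54.5% and 46.6% at 3 UMIs, 14.98%, 17.9%, 22.3% and 16.5% at 10 UMIs, and 20.04%, 22.2%, 32.5% and 17.6% when averaged over beta UMI classes without thinning. With 5 drawn from cells with at least 5 beta UMIs, they were 38.3% in YTBI_aCD49d and 47.6% in ATBI_Isotype. Here the number of UMIs drawn sets the level by construction. The CDR3 length difference was −0.035 codons without the largest clonotypes and −0.022 without clones of 10 or more cells. The clonal share difference was 1.41 points without the largest clonotypes and 1.22 without iNKT or MAIT evidence, and the cause was not tested. The shares of clonotypes 6 and 3 of ATBI_aCD49d both became 19.8% when clones were defined by the beta chain. No paired analysis was possible between groups because there was only 1 library for each; beta-only cells and cells with both chains were compared within each library. Segments with 10 to 40 cells in a library and clones of 20 to 50 cells limit the precision of their shares.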
